A study of Mus musculus with 9 samples.

Results

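The genes described here are 10 endothelial genes of the mouse lambdoidal junction: Kdr, Flt1, Flt4, Cdh5, Tie1, Tek, Pecam1, Cldn5, Plvap and Erg. They were taken by gene name from the 54532 genes of the table, each of them occurs there once, and all 10 passed the filter on low counts in every comparison. The lambdoidal junction is the region of the embryonic face where the maxillary prominence meets the nasal prominences, lateral and medial, and fuses with them into the upper lip and primary palate. RNA of whole lambdoidal junctions of wild-type C57BL/6J embryos was sequenced at 3 stages, E10.5, E11.5 and then E12.5. Every stage had 3 libraries of pooled embryos, with no treatment or altered allele in any group. The genes were selected on a measured pattern, namely that most of them are low in the third library of E10.5, so their level in that library is given as a description with no test.

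Endothelial cells line the blood vessels and are a minority among the mesenchyme and epithelium of the facial prominences. Their growth is driven by vascular endothelial growth factors, which are made by the surrounding tissue and bind receptor tyrosine kinases on the endothelial surface. The angiopoietins act through a separate pair of receptors to mature the vessel, and vascular endothelial cadherin, claudins and PECAM1 hold neighbouring cells together. In bulk RNA, fewer endothelial cells and less RNA per endothelial cell cannot be told apart.

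The libraries held 16581009–20836804 counts assigned to genes, and the 10 genes together took 5843–8392 of them in 8 libraries and 2026 in E10.5 replicate 3. Levels between libraries are given in counts scaled to the library total (CPM) after TMM scaling, which corrects for the make-up of the libraries. Both genes fixed as defining markers, Kdr and Cdh5, were detected in all 9 libraries, so endothelial RNA was present at each stage. E10.5 replicate 3 stood apart, and the comparisons with E10.5 below were tested without it, with the result of the fit that kept it given beside them. Nothing in the labels says that the libraries of a stage came from separate litters or extractions, so p-values measure the spread between these libraries only.

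The start regions of the genes show which control letters lie next to them. ERG belongs to the ETS family of transcription factors, which bind around a GGAA core, and endothelial genes are known as targets of ETS factors. RefSeq start regions on GRCm38.p6 were at hand for 7 of the 10 genes, in 9 windows because Erg has 3 starts. In the 250 bases before the start, GGAA on either strand was found 7 times for Tie1, 4 times each for Kdr and Flt1, 2 times each for Tek and Flt4, and 0 times for Cldn5. Of all 32851 start regions of that length, 93.4% hold at least 1 such core and the median is 3, while 3.82% hold 7 or more and 6.55% hold 0. Of these, 4 windows are shown, 2 of receptors with the core and 2 without it, Cldn5 and the outermost start of Erg, the gene that changed most. They are written 5′ to 3′ on the strand of the gene, with GGAA or its complement TTCC in capitals.
Flt1, chr5:147726012-147726261, minus strand: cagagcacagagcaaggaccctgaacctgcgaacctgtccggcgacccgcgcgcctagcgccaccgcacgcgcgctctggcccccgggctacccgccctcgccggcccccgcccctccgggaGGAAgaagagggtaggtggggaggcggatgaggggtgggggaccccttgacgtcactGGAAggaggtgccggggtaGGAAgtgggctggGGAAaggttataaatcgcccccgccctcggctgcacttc
Tek, chr4:94739039-94739288, plus strand: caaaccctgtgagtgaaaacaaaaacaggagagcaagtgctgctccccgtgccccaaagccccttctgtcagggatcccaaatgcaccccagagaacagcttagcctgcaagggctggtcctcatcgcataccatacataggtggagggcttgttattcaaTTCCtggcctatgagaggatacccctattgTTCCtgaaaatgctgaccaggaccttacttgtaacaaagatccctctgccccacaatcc
Cldn5, chr16:18776597-18776846, plus strand: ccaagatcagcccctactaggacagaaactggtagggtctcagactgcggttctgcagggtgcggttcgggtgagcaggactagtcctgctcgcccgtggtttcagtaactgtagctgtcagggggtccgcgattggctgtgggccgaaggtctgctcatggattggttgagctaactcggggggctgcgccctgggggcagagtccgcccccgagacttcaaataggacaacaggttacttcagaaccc
Erg, chr16:95586594-95586843, minus strand: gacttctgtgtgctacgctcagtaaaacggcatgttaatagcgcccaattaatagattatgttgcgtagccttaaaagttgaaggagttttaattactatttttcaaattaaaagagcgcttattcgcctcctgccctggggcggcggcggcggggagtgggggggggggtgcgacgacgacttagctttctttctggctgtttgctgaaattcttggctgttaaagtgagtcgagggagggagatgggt
The inner starts of Erg carried 4 and 2 cores. These are letters in a window and say nothing of whether a factor binds there.

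The summed level of the 10 genes was nearly flat across the stages while its make-up changed. Without E10.5 replicate 3, the sum was 444.1 and 441.0 CPM at E10.5, 400.6, 403.6 and 402.7 CPM at E11.5, and 397.2, 428.0 and 348.4 CPM at E12.5. At E12.5 the libraries spread more widely than at the earlier stages, with replicate 3 the lowest. The members diverged within this sum. Erg rose, Flt4 fell, and Cdh5 stayed close to its starting level.

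**Figure D1:**
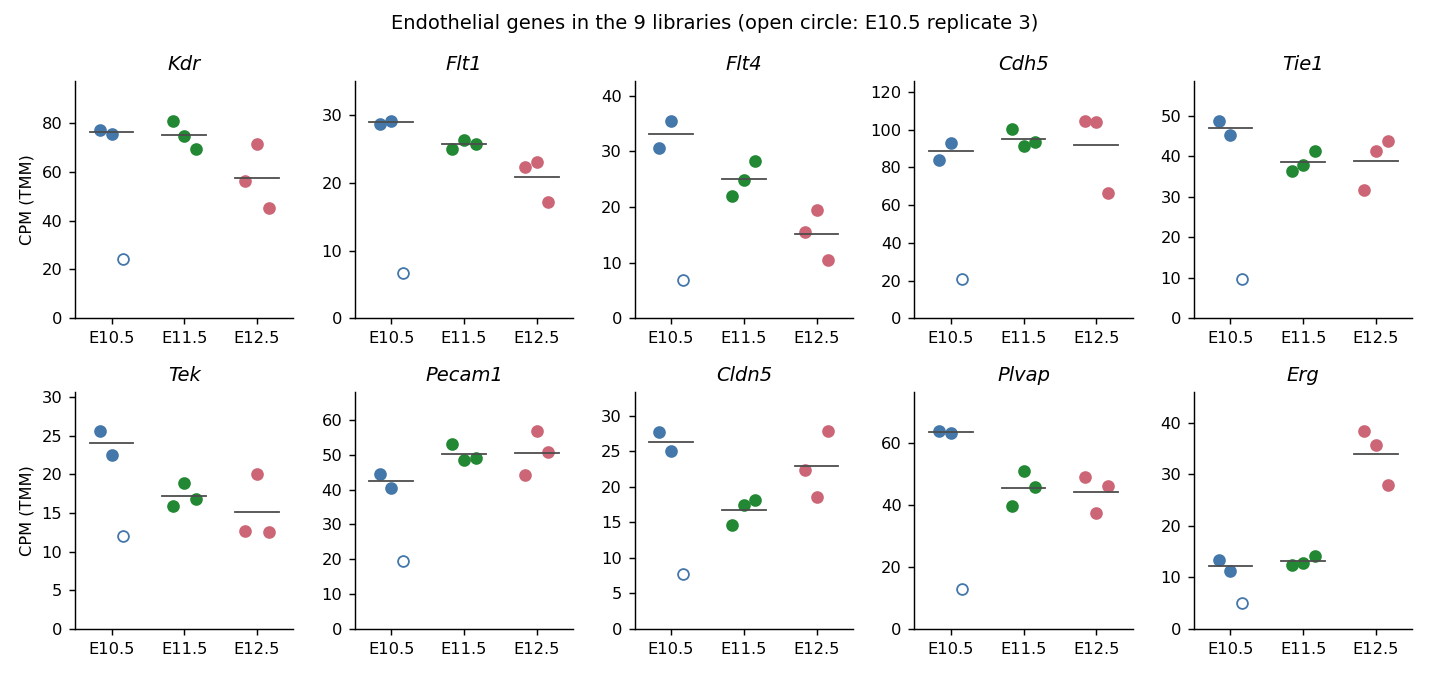
Level of each of the 10 endothelial genes in CPM (vertical axis, from 0) in the 3 libraries of each stage, with a bar at the stage mean without E10.5 replicate 3 and that library as an open circle. Erg lies at 28.0–38.4 CPM at E12.5 against 11.1–14.2 CPM in the other libraries apart from the open circle, Flt4 steps down, and the open circle lies below the other E10.5 libraries in all 10 panels.

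Levels were compared between genes on the deposited FPKM values, which divide by gene length. At E11.5, Plvap, a component of the diaphragms of endothelial fenestrae and caveolae, stood at 22.7 ± 2.79 FPKM (SD, n = 3) and Cdh5, vascular endothelial cadherin, at 22.4 ± 1.10 FPKM. Their libraries overlapped, so their order is not resolved. Cldn5, a tight junction claudin, followed at 11.7 ± 1.30 FPKM, apart from the genes on either side. Kdr at 8.23 ± 0.635, Pecam1 at 7.98 ± 0.389 and Tie1 at 7.76 ± 0.524 FPKM overlapped each other. Erg, Tek and Flt4 also formed an overlapping run, between 3.74 and 3.01 FPKM on average, and Flt1 was lowest at 1.89 ± 0.0476 FPKM. The length used for Flt1, 13504 bases, is that of all its annotated exons together, whereas its longest transcript has 6895 bases, and the FPKM of Flt1 is lower by this choice than one per longest transcript would be. The same choice lowers Pecam1 (6228 against 3441 bases), Kdr (9030 against 5924) and Flt4 (8232 against 6255). It leaves Cldn5 and Plvap as they are, with 1416 and 1987 bases by either length. The order of genes given here, and the gap below Cldn5, therefore hold for the deposited lengths only. At E12.5 Erg had moved from rank 7 to rank 4 at 9.65 ± 1.47 FPKM, above Kdr at 6.28 ± 1.46 FPKM, and the libraries of these genes did not overlap. The Erg libraries, at 7.994–10.81 FPKM, overlapped those of Pecam1 at 6.917–8.997 and Tie1 at 6.277–8.824 FPKM, so rank 4 is not resolved. The order of Erg and Kdr too rests on the deposited lengths, 3466 bases for Erg, whose longest transcript has 3249.

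E12.5 vs. E11.5 was the comparison that does not touch E10.5 replicate 3. Erg was upregulated and Flt4 downregulated, and the remaining 8 genes did not pass the test. Of all 15808 genes tested, 12.2% passed an adjusted p of 0.05 or less in either direction, 7.61% upward and 4.57% downward, beside 2 of 10 endothelial genes, 1 in each direction. With a change of 1 or more on the log2 scale also required, Erg alone passed, where the share among all genes was 5.10%. The median log2 fold change of the 10 genes was −0.05 and that of all genes 0.02.

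Erg, the ETS factor that is held to maintain endothelial identity, was at 12.4, 12.7 and 14.2 CPM at E11.5 and at 38.4, 35.6 and 28.0 CPM at E12.5. The stages did not overlap. The log2 fold change was 1.37 ± 0.15 (SE), a 2.59-fold rise (edgeR quasi-likelihood test, adjusted p = 0.0003723). It was called in all 6 fits that left out 1 library and in all 9 other settings, with log2 fold changes from 1.28 to 1.48. Erg is also expressed in cartilage precursors, and genes of cartilage rose over the same interval. Acan, the main proteoglycan of cartilage, went from 0.738 to 10.5 CPM and Matn4, a matrilin of the cartilage matrix, from 0.512 to 17.0 CPM, while Col2a1, the collagen of cartilage, stood at 402.2 CPM at E11.5 and 376.7 CPM at E12.5. In the cartilage list, which does not hold Erg, 4 of 7 tested genes were higher, namely Acan, Matn4, Col9a1 and Sox6, and 0 were lower. The call of Sox6 held in 3 of 6 fits with a library left out. The part of such cells in the rise of Erg was not tested.

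Flt4 encodes VEGFR3, the receptor of the ligands VEGF-C and VEGF-D that marks veins and lymphatic vessels. It was at 22.0, 24.8 and 28.2 CPM at E11.5 and at 15.6, 19.4 and 10.4 CPM at E12.5, again without overlap. The log2 fold change was −0.73 ± 0.21 (edgeR, adjusted p = 0.04442). This call was held in 7 of 9 other settings, but it was lost in 5 of the 6 fits with a library left out, in all but the one without E12.5 replicate 2, at adjusted p-values of up to 0.1473, and in the fit of all 9 libraries at an adjusted p of 0.3303.

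The other VEGF receptors did not pass. Kdr, or VEGFR2, the main signalling receptor of VEGF-A, was at 81.0, 74.7 and 69.4 CPM and then at 56.2, 71.6 and 45.1 CPM, with 1 E12.5 library inside the E11.5 range and a log2 fold change of −0.39 ± 0.16 (edgeR, adjusted p = 0.1451). Flt1, or VEGFR1, which also acts as a decoy that binds VEGF-A, was at 25.1, 26.4 and 25.8 CPM and then at 22.3, 23.0 and 17.2 CPM, lower in each library but at an adjusted p of 0.1816 (edgeR; log2 fold change −0.31 ± 0.15). Without E12.5 replicate 2, the library with the highest Kdr, Flt4 and Tek of that stage, 5 genes were called, namely Kdr, Flt4, Tek, Cldn5 and Erg.

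The angiopoietin receptor Tek, or TIE2, gave a log2 fold change of −0.19 ± 0.19 (edgeR, adjusted p = 0.5395) and its partner Tie1 0.01 ± 0.15 (adjusted p = 0.9711). Among the junction genes, Cdh5 was at 100.4, 91.3 and 93.8 CPM at E11.5 and at 104.9, 104.4 and 66.6 CPM at E12.5, which differ by less than the spread between the E12.5 libraries. Pecam1, an adhesion molecule of endothelial cells and platelets, differed by 0.00 ± 0.13 on the log2 scale. Cldn5 was at 14.7, 17.4 and 18.2 CPM and then at 22.4, 18.5 and 27.8 CPM, higher in each E12.5 library, and did not pass (edgeR, log2 fold change 0.44 ± 0.17, adjusted p = 0.1141). Plvap stood at 45.5 ± 5.59 CPM (SD, n = 3) and 44.1 ± 6.15 CPM (n = 3), with overlapping libraries.

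**Figure D2:**
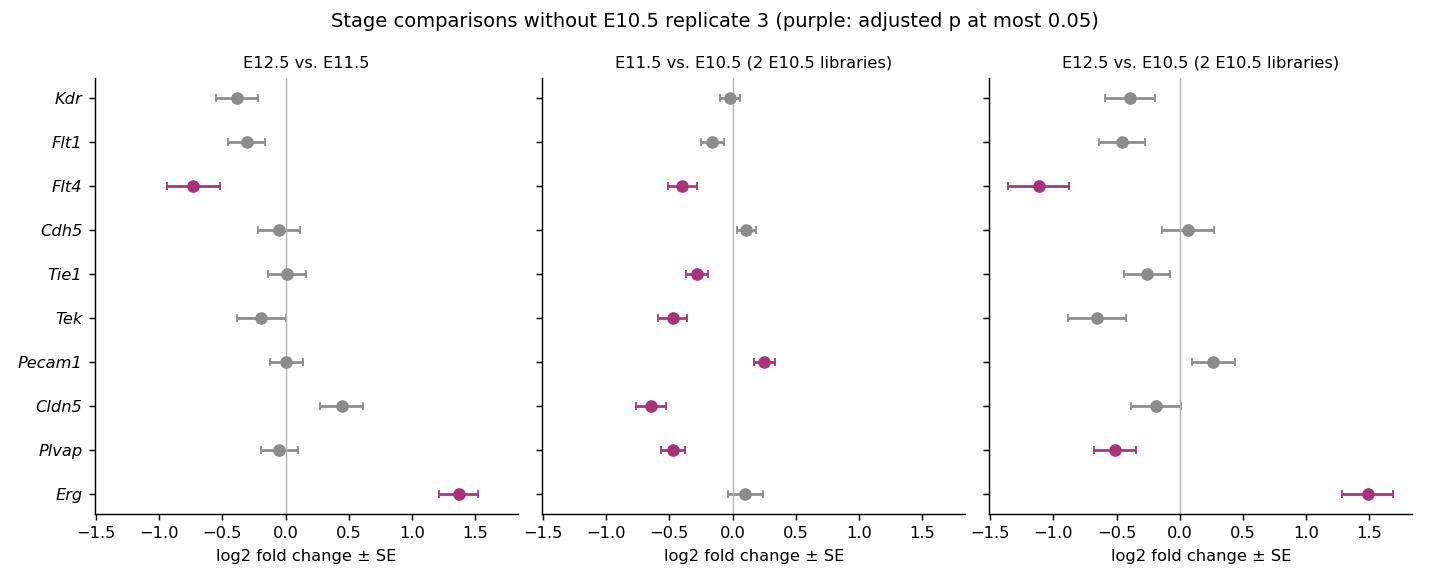
Log2 fold change (horizontal axis, later over earlier stage, bars ± SE) of the 10 genes in E12.5 vs. E11.5 and in both comparisons with E10.5 fitted without E10.5 replicate 3, with purple for an adjusted p of 0.05 or less. Erg stands to the right in both comparisons with E12.5, at 1.37 and 1.49, and Flt4 to the left in all 3 panels.

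The share of each gene in the summed counts of the 10 is free of the amount of endothelial RNA in a library only if all these counts are endothelial. That was not tested, and Erg and Pecam1 are also expressed in other cells. Erg made up 3.26% ± 0.241 of these counts at E11.5 (SD, n = 3) and 8.68% ± 0.864 at E12.5 (n = 3), and 2.53–3.01% in E10.5 replicates 1 and 2. The E12.5 libraries, at 8.04–9.66%, lay above all others. Flt4 went from 6.91% and 8.06% in those E10.5 libraries to 6.22% ± 0.762 and then 3.81% ± 0.784, without overlap between E11.5 and E12.5. These shares weigh longer genes more and were not tested.

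**Figure D3:**
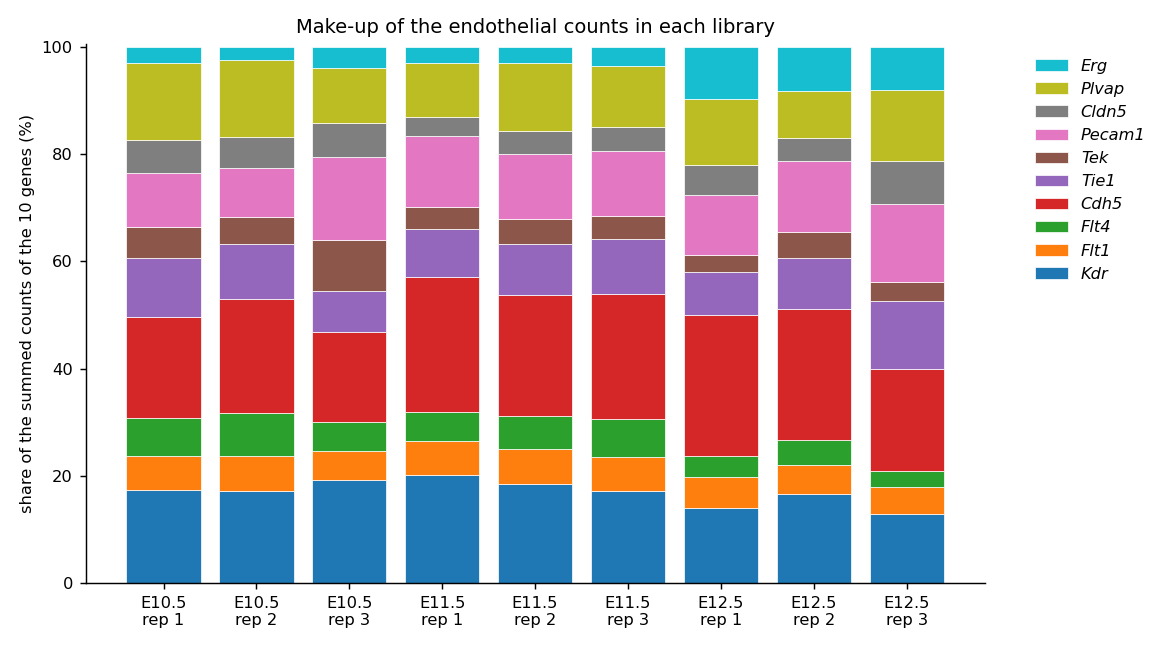
Share of each of the 10 genes in their summed counts (vertical axis, percent) in each of the 9 libraries. The Erg segment at the top widens to 8.04–9.66% at E12.5, and in E10.5 replicate 3 the Pecam1 and Tek segments are wider than in the other E10.5 libraries.

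E11.5 vs. E10.5 was fitted on E10.5 replicates 1 and 2 alone. Of the 10 genes, 5 were downregulated, 1 was upregulated and 4 did not pass. In this fit 39.6% of all 16263 genes passed in either direction, 19.6% upward and 20.0% downward, so a call here is common. No endothelial gene also changed by 1 or more on the log2 scale, which 9.79% of all genes did. The median over the 10 genes was −0.22 and over all genes −0.01.

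The steepest declines were those of Cldn5 and of Tek and Plvap. Cldn5 was at 27.7 and 25.0 CPM at E10.5 and at 14.7, 17.4 and 18.2 CPM at E11.5, with a log2 fold change of −0.65 ± 0.12 (edgeR, adjusted p = 0.0009812). Plvap went from 63.8 and 63.2 CPM to 39.8, 50.9 and 45.8 CPM (log2 fold change −0.47 ± 0.10, adjusted p = 0.002112). Both were called in all 5 fits with a further library left out, and no libraries of the stages overlapped. Tek went from 25.6 and 22.5 CPM to 15.9, 18.9 and 16.8 CPM (−0.48 ± 0.12, adjusted p = 0.005952), called in 4 of these 5 fits and lost without E10.5 replicate 1 (adjusted p = 0.07498).

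Flt4 went from 30.7 and 35.5 CPM to the E11.5 values above (−0.40 ± 0.12, adjusted p = 0.01561 by edgeR) and Tie1 from 48.9 and 45.2 CPM to 36.3, 37.9 and 41.4 CPM (−0.28 ± 0.09, adjusted p = 0.02224). Flt4 lost the call without E10.5 replicate 2, and Tie1 without either of the E10.5 libraries. Pecam1 was the gene that rose, from 44.3 and 40.5 CPM to 53.1, 48.6 and 49.0 CPM (0.25 ± 0.08, adjusted p = 0.03032), and its call held in 1 of the 5 fits with a library left out. Without E10.5 replicate 1 or replicate 2, 3 genes were called in place of 6. Kdr (log2 fold change −0.02), Flt1 (−0.16), Cdh5 (0.11) and Erg (0.10) did not pass.

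The levels of genes moved with their GC content between these libraries. Spearman's rho of GC content with the deviation from the mean over all libraries was 0.246 and 0.241 in E10.5 replicates 1 and 2 and −0.249 to −0.00386 at E11.5. With that trend removed, 3 of the 6 calls were left, Tek, Pecam1 and Cldn5, whereas Plvap (adjusted p = 0.05283), Flt4 (0.08645) and Tie1 (0.3306) were not called. The fit that kept E10.5 replicate 3 called 0 of the 10 genes by edgeR, with 0 at an unadjusted p under 0.05 and 0 by DESeq2, where 11.8% of 15708 genes were called and 6.07% with a log2 change of 1 or more. In that fit Kdr, Flt1, Flt4 and Tie1 had the opposite sign, from 0.04 for Flt4 to 0.35 for Kdr.

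E12.5 vs. E10.5 without E10.5 replicate 3 gave 3 calls. Erg rose, and Flt4 and Plvap fell. The shares among all 16501 genes were 30.1% in either direction, 16.6% upward and 13.4% downward. Erg and Flt4 also changed by 1 or more on the log2 scale, as did 16.6% of all genes. Erg rose from 13.4 and 11.1 CPM by 1.49 ± 0.20 on the log2 scale, or 2.80-fold (edgeR, adjusted p = 0.0005377), and Flt4 fell by 1.12 ± 0.24, or 2.17-fold (adjusted p = 0.006583). Both were called in all 5 fits with a further library left out. Plvap fell by 0.51 ± 0.17 (adjusted p = 0.04184), called in 2 of those 5 fits. Without E12.5 replicate 2, 6 genes were called, namely Kdr, Flt1, Flt4, Tek, Plvap and Erg. Tek at −0.66 ± 0.23 (adjusted p = 0.05221) and Flt1 at −0.46 ± 0.18 (adjusted p = 0.08038) did not pass, although no libraries overlapped. With E10.5 replicate 3 kept, Erg alone was called, at 1.80 ± 0.32 (adjusted p = 0.002187), where 24.6% of 15899 genes were called and 15.0% with a log2 change of 1 or more. E12.5 vs. E11.5 and both comparisons with E10.5 share libraries pairwise and are not independent of each other.

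In E10.5 replicate 3 all 10 genes were lower than in both other E10.5 libraries, from 2.01-fold for Tek to 4.90-fold for Plvap against their mean. This is the pattern that chose the genes. The VEGF receptors stood at 24.1 CPM for Kdr, 6.75 CPM for Flt1 and 6.88 CPM for Flt4, against 76.4, 28.9 and 33.1 CPM on average in replicates 1 and 2. Cdh5 was at 21.0 against 88.7 CPM, Tie1 at 9.66 against 47.0 CPM, and Plvap at 12.9 against 63.5 CPM. Tek at 11.95 against 24.0 CPM, Pecam1 at 19.5 against 42.4 CPM and Erg at 4.96 against 12.3 CPM were the least reduced. Replicates 1 and 2 themselves differed by at most 0.260 on the log2 scale in any of the 10 genes.

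The reduction was uneven among the genes. On the log2 scale 9 of 10 lay at −1 or below and Tek at −0.997, just above it, with a median of −1.91. Of all 16363 genes with a GC value, 7.47% lay at −1 or below, and their median was −0.01. Within the 10 genes of this library the share of Tek was 9.53% (95% Wilson interval 8.32–10.9%) against 5.75% and 5.09% in replicates 1 and 2, and that of Pecam1 15.5% (14.0–17.1%) against 9.98% and 9.17%. Plvap fell to 10.3% (9.07–11.7%) from 14.4% and 14.3%. The intervals cover counting error only, since no molecular identifiers are described.

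The other endothelial genes were lower too, though not all. Of 27 further endothelial genes, in a list also chosen with earlier results of these data known, 25 were below both other E10.5 libraries. Of all genes 44.4% were, at a median GC content of 49.7% against 52.6% in the list. The median log2 difference of the 27 was −1.30, and some were barely lower, such as Myct1 at 2.42 against 2.64 CPM. Sox7, a transcription factor of early endothelium, was lowest at 1.67 against 9.34 CPM. Emcn, the sialoprotein endomucin of veins and capillaries, was at 27.9 against 26.0 CPM, and Calcrl, a receptor for adrenomedullin, at 13.2 against 12.9 CPM. Both have few G and C letters in their exons, 40.7% and 37.8%, below each of the 10 genes at 47.1–60.6%. Ecscr at 50.9% and Icam2 at 53.9% were also little lower, at −0.18 and −0.41 on the log2 scale. Clec14a and Adgrl4, at 44.6% and 42.2%, were lower by more, at −1.21 and −0.89.

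Across the 37 endothelial genes the log2 difference went down as GC content went up, with Pearson's r = −0.626 across genes, which share the library and are no independent replicates. Spearman's rho of GC content with the deviation over all genes was −0.399 in E10.5 replicate 3. With the trend over all genes removed, all 10 genes lay at −1 or below, from −1.07 for Pecam1 to −2.01 for Flt1 with a median of −1.67, as did 5.79% of all genes. Emcn was then at −0.41 and Calcrl at −0.64, while Ecscr at −0.08 and Icam2 at −0.15 lay nearest to no difference.

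**Figure D4:**
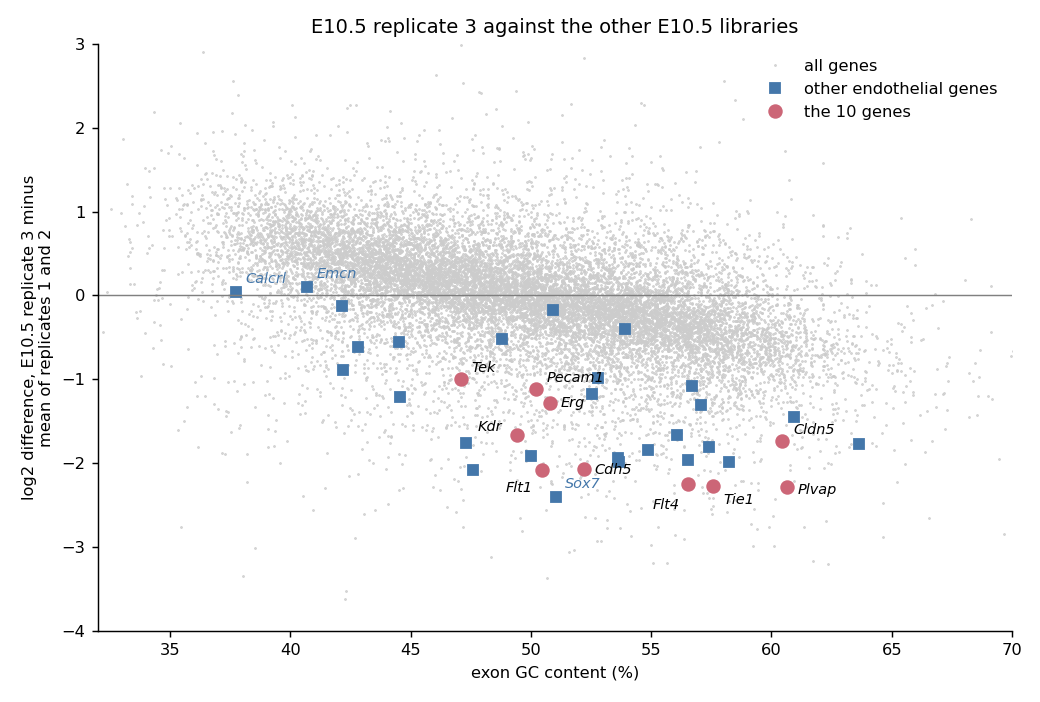
Log2 difference between E10.5 replicate 3 and the mean of E10.5 replicates 1 and 2 (vertical axis) against the GC content of the exons in percent (horizontal axis) for all genes (grey), the 10 genes (red) and 27 other endothelial genes (blue squares). The 10 genes lie between −0.997 and −2.28, below most genes of like GC content, and Emcn and Calcrl, at the left, lie near 0.

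Other cell types differed in E10.5 replicate 3 as well. Among the cells that accompany vessels, the 13 mural cell genes summed to 228.8 CPM against 480.2 and 510.2 CPM. Most of that sum in replicates 1 and 2 came from Notch3 and Pdgfrb, at 286.0 and 163.1 CPM on average. Which cells carried these was not tested. The pericyte marker Rgs5 was at 2.48 against 3.63 and 2.90 CPM. Kcnj8, another pericyte gene, had 0 counts against 4 and 1, too few to show a difference, and also 0 in E11.5 replicate 1. The 14 erythroid genes summed to 4685 CPM, between the other E10.5 libraries at 3582 and 4814 CPM. The 8 megakaryocyte genes summed to 21.3 against 38.9 and 42.9 CPM, and the 14 macrophage genes to 38.1 against 43.4 and 52.2 CPM. The 8 epithelial genes summed to 801.3 against 439.0 and 500.4 CPM, the 8 mesenchymal genes to 1159 against 1778 and 1780 CPM, and the 10 forebrain and eye genes to 413.9 against 274.8 and 324.3 CPM. The 8 neuronal genes summed to 228.2 against 203.3 and 209.3 CPM and the 8 cartilage genes to 727.5 against 1011 and 1145 CPM. Mitochondrial genes took 2.46% of its counts against 1.43% and 1.32%. No defining marker of these lists other than Kcnj8 was at 0 in that library, and the part of any of this in the low endothelial genes was not tested.

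The ligands of the receptors were taken from a list of 10 genes, 9 of which were tested. Vegfa, the main ligand of Kdr and Flt1, fell from 61.6 and 70.5 CPM at E10.5, replicate 3 left out, to 46.9, 49.1 and 45.0 CPM at E11.5 (log2 fold change −0.48 ± 0.08, edgeR adjusted p = 0.0006446). At E12.5 it was at 80.0, 63.3 and 50.8 CPM, above each E11.5 library without passing the test (adjusted p = 0.08708). Vegfd, a ligand of Flt4, fell at each step, as Flt4 did. It went from 9.57 and 9.75 CPM to 4.79, 8.03 and 5.004 CPM (−0.69 ± 0.21, adjusted p = 0.02141, called in 1 of 5 fits with a library left out) and then to 2.87, 2.75 and 1.73 CPM (−1.28 ± 0.28, adjusted p = 0.01498, called in 4 of 6). From E10.5 to E12.5 it fell by 1.96 ± 0.27 (adjusted p = 0.0005098), called in all 5 fits. Vegfc, the other ligand of Flt4, did not pass in any of the 3 comparisons, with log2 fold changes from −0.22 to 0.22.

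Angpt1, the agonist of Tek, rose at each step. It was at 10.5 and 10.9 CPM, then at 19.4, 15.5 and 18.3 CPM, and then at 24.5, 31.8 and 25.1 CPM, with no overlap between stages apart from E10.5 replicate 3, which lay at 18.4 CPM, within the E11.5 range. The log2 fold changes were 0.73 ± 0.14 (edgeR, adjusted p = 0.00104) and 0.61 ± 0.16 (adjusted p = 0.02845, called in 2 of 6 fits with a library left out and not in the fit of all 9 libraries, at 0.1146), and 1.36 ± 0.20 over both steps (adjusted p = 0.0007394, called in all 5). Angpt2, which can block Tek, was at 2.03–4.43 CPM and did not pass. It was lower in each E12.5 library, at 2.028–2.965 CPM, than at E11.5, at 3.121–4.425 CPM (log2 fold change −0.71 ± 0.26, edgeR adjusted p = 0.0926). The coreceptor Nrp2, which is also found outside vessels, rose from 107.7 and 94.0 CPM to 216.9, 191.9 and 208.4 CPM (1.03 ± 0.08, adjusted p = 1.526e-06). Nrp1, the coreceptor for VEGF-A, did not pass (−0.01 and −0.28). Vegfb fell from E10.5 to E11.5 (−0.26 ± 0.08, adjusted p = 0.02797, called in 2 of 5 fits with a library left out), a call that was lost with the GC trend removed, where its sign turned to 0.05, and Pgf, placental growth factor, rose from E10.5 to E12.5 (0.91 ± 0.30, adjusted p = 0.04038, called in 2 of 5 fits with a library left out). Angpt4 was at 0–0.216 CPM and was not tested. Of all genes, 7.61% were higher and 4.57% lower between E11.5 and E12.5. The shares were 19.6% and 20.0% between E10.5 and E11.5, and 16.6% and 13.4% over both steps. In this list, 1 of the 9 genes was higher and 1 lower between E11.5 and E12.5, 2 were higher and 3 lower between E10.5 and E11.5, and 3 were higher and 1 lower over both steps. With E10.5 replicate 3 kept, 1 was higher and 0 were lower at the first step, and the counts over both steps were again 3 and 1.

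The 27 other endothelial genes moved little between E11.5 and E12.5, as most of the 10 did, with 2 higher and 2 lower and a median of 0.06. Of all genes 7.61% were higher and 4.57% lower. Sox18, a transcription factor of vessels and developing lymphatics, stood out beside Erg. It was at 20.8, 18.1 and 21.3 CPM at E11.5 and at 67.3, 49.4 and 62.2 CPM at E12.5, a log2 fold change of 1.57 ± 0.15 (edgeR, adjusted p = 0.0001584) that was called in all 6 fits with a library left out. Icam2, an adhesion molecule, also rose (0.66 ± 0.16, adjusted p = 0.0198, called in 2 of 6 such fits). Tal1, a factor of blood and endothelial precursors, fell by 0.80 ± 0.15 (adjusted p = 0.005875, called in all 6) and Fli1, an ETS factor close to Erg, fell by 0.58 ± 0.13 (adjusted p = 0.01382, called in 2 of 6). In the fit of all 9 libraries neither Tal1 (adjusted p = 0.07041) nor Fli1 (0.05482) was called. Erg and Fli1 thus had opposite signs. Of blood genes, which share Tal1 as a factor, 9 of 14 in the erythroid list were lower and 4 higher in the same comparison. The defining genes Emcn, Egfl7 and Esam were at 20.0–28.0, 19.7–28.7 and 13.6–22.2 CPM over both stages and did not pass.

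Against E10.5 replicates 1 and 2, 19.6% of all genes were higher and 20.0% lower at E11.5. Of the 27 other endothelial genes 3 were higher and 4 lower, with a median of 0.05. All of these changes stayed below 1 on the log2 scale. The largest in each direction were 0.90 ± 0.26 for Myct1 and −0.57 ± 0.19 for Sox17 (adjusted p = 0.01594 and 0.02772, edgeR). Leaving out a further library gave 0.717 to 1.090 for Myct1 and −0.692 to −0.424 for Sox17, which DESeq2 did not call (adjusted p = 0.06805). Neither gene was called without E11.5 replicate 1 or without E11.5 replicate 3. Others were 0.28 ± 0.07 for Cd34, 0.44 ± 0.13 for Robo4, −0.48 ± 0.15 for Ptprb and −0.41 ± 0.12 for Rasip1 (adjusted p = 0.00926, 0.01427, 0.02184 and 0.01424, edgeR). Egfl7 also fell, at −0.38 ± 0.10 (adjusted p = 0.01114, edgeR). Of the 5 fits with a further library left out, Cd34 was called in 4, Robo4 in 3, Ptprb in 1 and Rasip1 in 3. With the GC trend removed Cd34 and Rasip1 were not called (adjusted p = 0.1253 and 0.6842). At E12.5 6 of the 27 were higher than at E10.5 and 1 was lower, where 16.6% and 13.4% of all genes were. With E10.5 replicate 3 kept, 1 was higher and 0 were lower at E11.5, and 5 and 0 at E12.5.

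Calls among markers of vessel types went in both directions. In E12.5 vs. E11.5 the median log2 fold change of the arterial genes was 0.57, where that of all genes was 0.02. Among the arterial genes Gja5 and Gja4, connexins of arterial endothelium, rose in E12.5 vs. E11.5, Gja5 from 4.20, 5.34 and 4.27 CPM to 9.92, 12.9 and 9.54 CPM (1.22 ± 0.19, edgeR adjusted p = 0.002761, called in all 6 fits with a library left out) and Gja4 from 5.13 to 10.4 CPM on average (1.02 ± 0.20, adjusted p = 0.009545, lost without E11.5 replicate 2 at 0.05477 and in the fit of all 9 libraries at 0.08234). Unc5b, a netrin receptor that other facial cells also express, fell by 0.61 ± 0.17 (adjusted p = 0.03983, called in 1 of 6 such fits and not in that of all 9 libraries, at 0.09132), so that 2 of 7 tested arterial genes were higher and 1 was lower. Dll4, the Notch ligand of arteries, was at 5.17–7.58 CPM and then 8.30–10.7 CPM without passing. Sema3g was likewise higher in each E12.5 library and did not pass (0.57 ± 0.20, adjusted p = 0.09169, edgeR). Notch4 and Efnb2 stood at −0.08 and −0.05.

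Of 6 tested venous and lymphatic genes, 0 were higher and 1 was lower in E12.5 vs. E11.5. It was Aplnr, the apelin receptor of veins, at 70.5 and then 47.4 CPM on average (−0.58 ± 0.12, edgeR adjusted p = 0.01287, called in 3 of 6 fits with a library left out and not in the fit of all 9 libraries, at 0.2855). In E11.5 vs. E10.5 3 fell and 1 rose, where 20.0% of all genes were lower and 19.6% higher. Nr2f2, which specifies veins and is also found in mesenchyme, went from 105.8 to 60.1 CPM (−0.81 ± 0.10, adjusted p = 5.589e-05) and Stab1, a scavenger receptor of sinusoidal endothelium and macrophages, from 50.4 to 32.2 CPM (−0.64 ± 0.08, adjusted p = 5.65e-05). Prox1, the factor of lymphatic identity, fell from 5.64 to 2.67 CPM (−1.07 ± 0.21, adjusted p = 0.001784), and Aplnr rose by 0.31 ± 0.07 (adjusted p = 0.00594, called in 4 of 5 fits with a further library left out). Lyve1, a marker of lymphatic vessels, was at 0–0.475 CPM in every library. Which cells carried Prox1 was not tested, and the forebrain and eye genes given below fell over the same step. Of the tip cell genes 1 of 4 was higher in E12.5 vs. E11.5, Apln, the apelin ligand (0.61 ± 0.16, adjusted p = 0.03394, called in 1 of 6 such fits and not in that of all 9 libraries, at 0.09656), and 1 of 4 in E11.5 vs. E10.5, Cxcr4 (0.83 ± 0.15, adjusted p = 0.0009526). With E10.5 replicate 3 kept, 2 venous and lymphatic genes were lower and 0 higher at E11.5, and 0 tip cell genes were called.

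The genes of the brain barrier gave 0 calls of 5 tested in E12.5 vs. E11.5 and 4 downward in E11.5 vs. E10.5. In the latter 20.0% of all genes were called downward. Slc2a1, the glucose transporter GLUT1 that many cell types carry, fell from 179.2 to 102.5 CPM (−0.80 ± 0.08, edgeR adjusted p = 6.424e-06), and Slc7a5, an amino acid transporter, fell by 0.50 ± 0.08 (adjusted p = 0.0003221). Mfsd2a, a lipid transporter of barrier endothelium, fell by 0.49 ± 0.16 (adjusted p = 0.02667, called in 2 of 5 fits with a library left out and not with the GC trend removed, at 0.05411), and Slco1c1 was at 0–1.35 CPM. The forebrain and eye genes fell between the same stages, 8 of 10 tested, from 274.8–324.3 to 121.3–126.4 CPM in sum, and their part in this was not tested. With E10.5 replicate 3 kept, 1 barrier gene was lower in place of 4. Of the mural genes, 2 of 8 tested were higher and 2 lower in E12.5 vs. E11.5. Cspg4, the pericyte proteoglycan NG2, rose from 7.05 to 14.3 CPM (1.01 ± 0.17, adjusted p = 0.00418) and Des, the intermediate filament desmin of muscle and mural cells, fell from 3.29 to 0.807 CPM (−2.02 ± 0.35, adjusted p = 0.004612), both called in all 6 fits with a library left out.

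**Figure D5:**
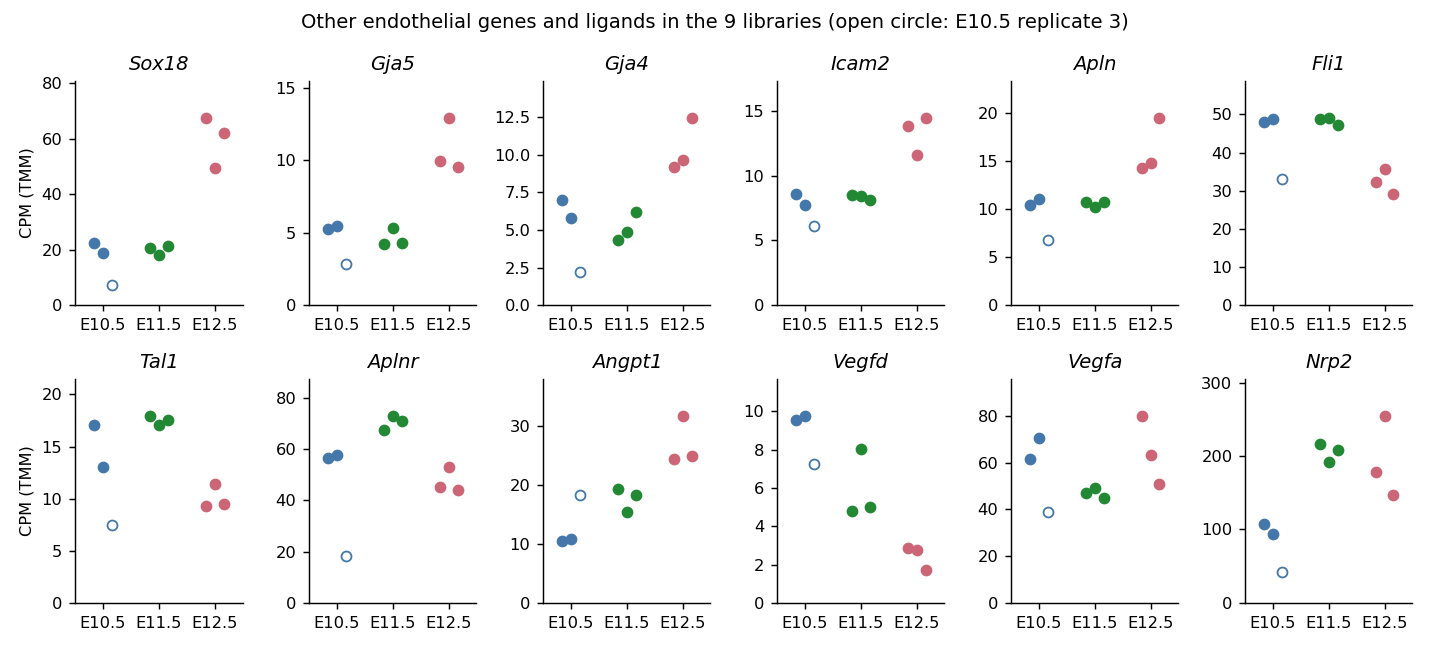
Level in CPM (vertical axis, from 0) of 12 endothelial genes, ligands and coreceptors outside the 10, in the 3 libraries of each stage, with E10.5 replicate 3 as an open circle. Sox18, Gja5 and Gja4 are higher in each E12.5 library than in any other, Angpt1 steps up and Vegfd steps down.

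Cells next to the endothelium moved with stage as follows. From E11.5 to E12.5 the macrophage genes summed to 49.5–55.2 and then 61.3–66.8 CPM, with Mrc1 alone called (0.72 ± 0.16, edgeR adjusted p = 0.01778, called in 2 of 6 fits with a library left out and not in that of all 9 libraries, at 0.05432), and the megakaryocyte genes, which share Pecam1 as a surface molecule, to 68.0–77.4 and then 50.1–73.5 CPM, with 0 of 7 higher and 1 lower. From E10.5 to E11.5, where 19.6% of all genes were higher, 6 of 7 megakaryocyte genes were. Their sum went from 38.9–42.9 CPM in replicates 1 and 2 to that of E11.5. Pecam1 rose over the same step, and the part of platelet precursors in its rise was not tested. Mesenchymal genes rose too, 7 of 8, in E11.5 vs. E10.5, while 0 were higher and 1 was lower in the later step. With E10.5 replicate 3 kept, 4 megakaryocyte and 4 mesenchymal genes were higher in the first step. Of the epithelial genes 2 of 8 and of the neuronal genes 2 of 8 were higher in E12.5 vs. E11.5 and 0 were lower.

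The 10 genes kept together mainly through E10.5 replicate 3. Over all 9 libraries 44 of the 45 pairs of members had a positive Pearson's r of log2 CPM, with a median of 0.756. The genes were chosen because most are low in that library, so positive values over 9 libraries were built in by the choice. Over the 8 other libraries 26 of 45 were positive and the median was 0.135. Flt1 and Flt4 (r = 0.977), Kdr and Flt1 (0.893) and Kdr and Flt4 (0.861) stayed close, so the 3 VEGF receptors moved with each other. Tek moved with these receptors too (0.825 with Flt4, 0.804 with Flt1, 0.760 with Kdr). Erg ran against the VEGF receptors and Tek (−0.674 with Kdr, −0.726 with Flt1, −0.768 with Flt4, −0.557 with Tek), and Pecam1 ran against Plvap (−0.912). These values rest on 8 libraries of 3 stages and are descriptions.

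The genes whose pattern over the 8 libraries was most like the mean of the 10, among 13788 genes with 10 or more counts in each library, were Ankrd13a (r = 0.971), Slc38a4 (0.971), Bsn (0.963), Rdh5 (0.960), Gorasp1 (0.958), Elavl3 (0.957), 2700081O15Rik (0.949), Mapk4 (0.948), Fem1a (0.947) and Cdc42bpg (0.944). None of these 10 is in an endothelial list, and over all 9 libraries their r ranged from −0.585 for Slc38a4 to 0.993 for 2700081O15Rik. Ranked over all 9 libraries instead, a ranking chosen after the first was seen, the top 10 held 4 genes of the endothelial lists, namely She (0.987), Nos3 (0.981), Notch4 (0.979) and Arhgef15 (0.977). This ranking includes E10.5 replicate 3, on which the members were chosen, and is a description only.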

How the data were processed

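Reads of the 9 libraries (TruSeq) were mapped by the authors to GRCm38/mm10 with HISAT2 2.0.5 and counted per gene with featureCounts; strand and the treatment of reads with several positions are not given in the sources used here. The deposited count columns hold whole-number read counts per gene, not normalized, and the deposited FPKM columns hold the authors' values per length, used here only to compare levels between genes. The authors also deposited the log2 fold changes, p-values and mean normalized counts per stage (a signal scaled by size factors) of their own DESeq2 comparisons, and none of these was used.

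The members and gene lists were chosen with earlier results of these data known. Named genes were all 10 members, the defining genes of each list, all VEGF and angiopoietin genes, up to 3 called genes per direction of each other list whose libraries did not overlap, by largest change, and the 10 genes most like the members. Each pair of stages was fitted across all genes with edgeR 4.0.16 in R 4.3.3 (filterByExpr, TMM, quasi-likelihood test, Benjamini-Hochberg adjustment), calling an adjusted p of 0.05 or less. Comparisons with E10.5 were fitted with 3 and, as the reported test, with 2 E10.5 libraries, a choice made after the data were seen. Levels are TMM-scaled CPM. The GC trend was a lowess curve (span 0.3) of log2 CPM (prior count 2) on exon GC content from GENCODE vM21, whose coordinates equalled the table's for all 10 members. No exon base of a member is shared with another gene. Replicate numbers did not pair the libraries, as the closing section gives. DESeq2 1.42.0, other scalings, filters and left-out libraries were alternatives. The procedure was tested on simulated data. Library totals of 16581009–20836804 counts set the precision.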

Additional observations from a re-analysis of the deposited data

How the results depend on the processing

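In E12.5 vs. E11.5, 2 of the 10 genes were called; the count was 1 (Erg) with at least 10 counts in every library, with all 9 libraries in one fit, at an adjusted p of 0.01 or less and with a log2 change of 1 or more, and 1 to 5 with a library left out. In E11.5 vs. E10.5 on all 6 libraries the count was 0, and 0 to 6 with a library left out, the 6 in the absence of E10.5 replicate 3. For E10.5 against E12.5 the count was 1, became 2 when all genes with at least 1 count were tested, and was 1 to 3 with a library left out, the 3 without E10.5 replicate 3. On 2 E10.5 libraries, E11.5 vs. E10.5 gave 6 calls, 3 with the GC trend removed and 3 to 6 with a further library left out, and E12.5 vs. E10.5 gave 3 calls, and 2 to 6 in the same way, the 6 without E12.5 replicate 2. The causes were not tested. Where a left-out library leaves 1 at a stage, that library is assumed to vary like the others.

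Several genes changed sign between fits, and none of them was called in both fits. In E12.5 vs. E11.5 the log2 fold change of Tie1 was −0.0019 with DESeq2 size factors and with DESeq2, −0.0116 with all genes of at least 1 count and −0.1026 with the GC trend removed, and that of Pecam1 −0.0091, −0.0091 and −0.0188 in the first 3 of these; Plvap was at 0.0088 with upper quartile normalization. With a library left out, Cdh5 ranged from −0.1625 to 0.1220, Tie1 from −0.0924 to 0.1446, Pecam1 from −0.0927 to 0.0970 and Plvap from −0.1496 to 0.0535. Between E10.5 and E11.5, Plvap was at 0.1373 with the GC trend removed. The ranges with a library left out were −0.0202 to 0.5909 for Kdr, −0.1631 to 0.5408 for Flt1, −0.3980 to 0.4159 for Flt4, −0.2803 to 0.4918 for Tie1, −0.6450 to 0.0316 for Cldn5 and −0.4729 to 0.2586 for Plvap. Their low ends came from the fit without E10.5 replicate 3. There Flt4 and Tie1, at 0.0425 and 0.1619 on all 6 libraries, turned negative and were called (edgeR, adjusted p = 0.01561 and 0.02224). Cldn5 and Plvap were called there too. In E12.5 vs. E10.5 upper quartile normalization gave 0.0255 for Kdr and 0.0123 for Flt1, and the ranges were −0.3931 to 0.2021 for Kdr, −0.4595 to 0.2393 for Flt1, −0.2583 to 0.4991 for Tie1, −0.1886 to 0.4740 for Cldn5 and −0.5111 to 0.2068 for Plvap. On 2 E10.5 libraries they were −0.0744 to 0.0333 for Kdr (E11.5 vs. E10.5), −0.0174 to 0.2391 for Erg (E11.5 vs. E10.5) and −0.0483 to 0.2448 for Cdh5 (E12.5 vs. E10.5).

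The replicate numbers did not pair the libraries: deviations of same-numbered libraries from their stage means correlated at −0.151 to 0.220. With the replicate block, the counts of calls stayed at 2 for E11.5 to E12.5, at 0 for E10.5 to E11.5 and at 1 for E10.5 to E12.5. The log2 fold changes of Tie1 and Pecam1 in the first were −0.0011 and −0.0023, that of Plvap in the second was 0.2217, and those of Kdr, Flt1 and Plvap in the third were 0.1191, 0.1782 and 0.1804.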
